A study of Homo sapiens with 23 samples.

Results

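The cancer-testis antigen set described here has 9 genes. They are MAGEA1, MAGEA3, MAGEA4, MAGEA6, MAGEA10 and MAGEA12 of the melanoma antigen A family, SSX2, PAGE4 and PRAME, and all 9 were found by symbol or Ensembl identifier among the 60683 genes of the LNCaP table, the 58219 of the LAPC4 table and the 54657 of the drug table. The members were chosen by their levels and their response to OC2 overexpression in these libraries, with earlier results in view, so the overexpression values below describe the genes that were chosen and carry no test. OC2, or ONECUT2, is a CUT-homeodomain transcription factor, and the study followed what its gain, its loss and its inhibition did to the RNA of prostate cancer cells.

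Both lines are androgen-sensitive human prostate adenocarcinoma lines. LNCaP was grown in RPMI and LAPC4 in IMDM with 1 nM R1881, a synthetic androgen, each with 10% serum, so every LAPC4 library came from androgen-supplemented cells. LNCaP gave 8 libraries of genetic perturbation. There were 2 control, 2 OC2 overexpression (OE), 2 shCon (control hairpin) and 2 shOC2 (OC2 hairpin) libraries. LAPC4 gave 3 vector (Vec) and 3 OC2 OE libraries. In the drug experiment, LNCaP was treated for 7 days with vehicle, with 10 µM enzalutamide, an androgen receptor antagonist, or with 10 µM enzalutamide plus 10 µM of an OC2 inhibitor, in 3 libraries each. No arm received the inhibitor alone. The labels do not say whether the replicates were separate cultures, so p-values measure the spread between these libraries, which may be technical. They also do not name the overexpression vector or say whether a line was 1 clone, and each hairpin group carries 1 hairpin code.

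Cancer-testis antigens are proteins made in male germ cells and largely absent from other adult tissues, where DNA methylation and repressive chromatin hold their promoters shut. Many tumours express some of them again, and the peptides they yield can be seen by T cells, which is why they are studied as immunotherapy targets. Most of the families, MAGEA, SSX and PAGE among them, lie on the X chromosome, whereas PRAME is autosomal. MAGE proteins bind RING-type ubiquitin ligases, SSX proteins associate with repressive chromatin, and PRAME is a substrate adaptor of a cullin ligase that dampens retinoic acid receptor signalling.

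On hg38, with GENCODE 29 gene models, the 6 MAGEA members spanned 1.27 Mb of the X chromosome. From the lowest coordinate they were MAGEA4 (chrX:151912509-151925170, plus strand), MAGEA10 (chrX:152133310-152138578, minus), MAGEA3 (chrX:152698752-152702347, plus), MAGEA12 (chrX:152733779-152737669, plus), MAGEA6 (chrX:152766136-152769747, minus) and MAGEA1 (chrX:153179285-153183880, plus). SSX2 (chrX:52696896-52707189, minus) and PAGE4 (chrX:49829260-49833973, plus) lay on the other side of the chromosome, and PRAME lay on chromosome 22 (chr22:22547701-22559361, minus). Exons of 4 members overlapped those of another gene, and the effect on their counts was not tested. MAGEA4 shared 172 exonic bases with the antisense gene MAGEA4-AS1, which held 0 to 21 counts in the LNCaP libraries, MAGEA10 shared 469 with the read-through gene MAGEA10-MAGEA5, which held 0 to 16, MAGEA12 shared 33 with CSAG4, and PRAME shared 19 with an opposite-strand gene that held 1 to 16 in LNCaP, 4 to 11 in LAPC4 and 5 to 60 in the drug libraries.

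The MAGEA promoters are shown because expressed and near-silent members carried the same letters at the start. RefSeq (GRCh38.p14) promoter windows, of 250 bases before to 50 after an annotated start, were given for 7 of the 9 members, in 16 windows. Those of MAGEA3 and MAGEA6 were identical at 300 of 300 positions. A pair of runs, in capitals below, was found in every window of MAGEA3, MAGEA4, MAGEA6 and MAGEA12 and in no window of SSX2, PAGE4 or PRAME. Each line gives 30 bases, 5′ to 3′ on the gene's own strand, and MAGEA4 has 5 annotated starts.
MAGEA3, chrX:152698705-152698734: ccaGGATGTGAcgccaCTGACTTGCGCatt
MAGEA6, chrX:152769749-152769778: ccaGGATGTGAcgccaCTGACTTGCGCatt
MAGEA12, chrX:152733742-152733771: gccGGATGTGAcgccaCTGACTTGCGCgtt
MAGEA4 start 1, chrX:151912451-151912480: cccGGATGTGAcatccCTGACTTGCGCatt
MAGEA4 start 2, chrX:151912852-151912881: cccGGATGTGAtgccaCTGACTTGCGCact
MAGEA4 start 3, chrX:151916204-151916233: cccGGATGTGAtgccaCTGACTTGCGCatt
The run GGATGTGA, read on both strands, was in 339 of 35116 RefSeq windows (0.965%), and CTGACTTGCGC was in 17 (0.0484%), which belonged to 11 genes. Apart from MAGEA3, MAGEA4, MAGEA6 and MAGEA12 these were MAGEA2, MAGEA2B, CSAG1, CSAG3, MAGEA3-DT, MAGEA6-DT and ABCA3. Both runs were found by comparing the members' own windows. The words ATCGAT and ATTGAT, which hold the ATNGAT core that CUT-homeodomain factors of this family bind, were in none of the 16 windows and in 0.655% and 5.58% of all windows. The ETS-type word CCGGAAG was also in none (8.52% of all), and CCGGAT, which overlaps the start of GGATGTGA, was in windows of MAGEA4 and MAGEA12 (5.85% of all). The 250 bases before the start held 15 CpG sites in MAGEA3 and in MAGEA6, 5 and 13 in the windows of MAGEA12, 6 to 14 in those of MAGEA4, 7 in those of SSX2, 4 in those of PAGE4 and 4 to 9 in those of PRAME, against a median of 11 (quartiles 3 and 23) over all windows. A match or its absence describes these letters only. MAGEA1 and MAGEA10 are named without a window.

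Library totals ran from 20963995 to 30465978 counts, and a floor of 3 counts corresponds to 0.0928 to 0.146 CPM by group. CPM is the usual depth-scaled read count, relative to a library total that was scaled by TMM within each table, and a gene is called silent in a group when no library exceeded the floor. ONECUT2 itself followed its labels: it was 11.5-fold higher in the LNCaP and 57.7-fold higher in the LAPC4 overexpression libraries, and 1.71-fold lower in shOC2 than in shCon (edgeR quasi-likelihood test, adjusted p = 9.78e-09, 2.85e-10 and 4.84e-05). All 10 luminal prostate markers exceeded the floor in every group. Of 12 germ cell markers, DAZL, TNP1, PRM1, PRM2 and ODF1 were at 0 in all 23 libraries. Others of the list were detected, and the number over the floor in a library ran from 1 in LAPC4 Vec to 6 in enzalutamide. NANOS3 was the highest in the LNCaP control, SYCP3 in LAPC4 Vec and the combination, and POU5F1 in the other groups. The sum of all 12 did not pass 7.70 CPM. In bulk RNA, more RNA per cell and more expressing cells cannot be told apart.

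MAGEA3, MAGEA6 and MAGEA12 were expressed in all 23 libraries and PRAME was too, MAGEA1 was on at levels that differed 108-fold between LNCaP reference groups, MAGEA4, MAGEA10 and SSX2 were on in some groups only, and PAGE4 was silent throughout. The number of silent members was 3 of 9 in the LNCaP control (MAGEA4, SSX2 and PAGE4), against 29.2% of protein-coding genes in that group. It was 2 in shCon, shOC2, vehicle and enzalutamide (SSX2 and PAGE4) and 2 in LAPC4 Vec (MAGEA10 and PAGE4). Only PAGE4 was silent by this rule in the LNCaP OE, LAPC4 OE and combination libraries, although SSX2 escaped it in the combination group through 6 counts in 1 library. MAGEA10 escaped it in LAPC4 OE through 9 counts in 1 library, and MAGEA4 in shCon through 4 counts in 1 library. The share of protein-coding genes silent by the same rule was 26.3% in LNCaP OE, 28.9% in shCon, 28.7% in shOC2, 28.3% in LAPC4 Vec, 25.5% in LAPC4 OE, 26.3% in vehicle, 22.2% in enzalutamide and 26.5% in the combination. PAGE4, an X-linked gene known from normal prostate stroma, had at most 2 counts in any of the 23 libraries.

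**Figure D1:**
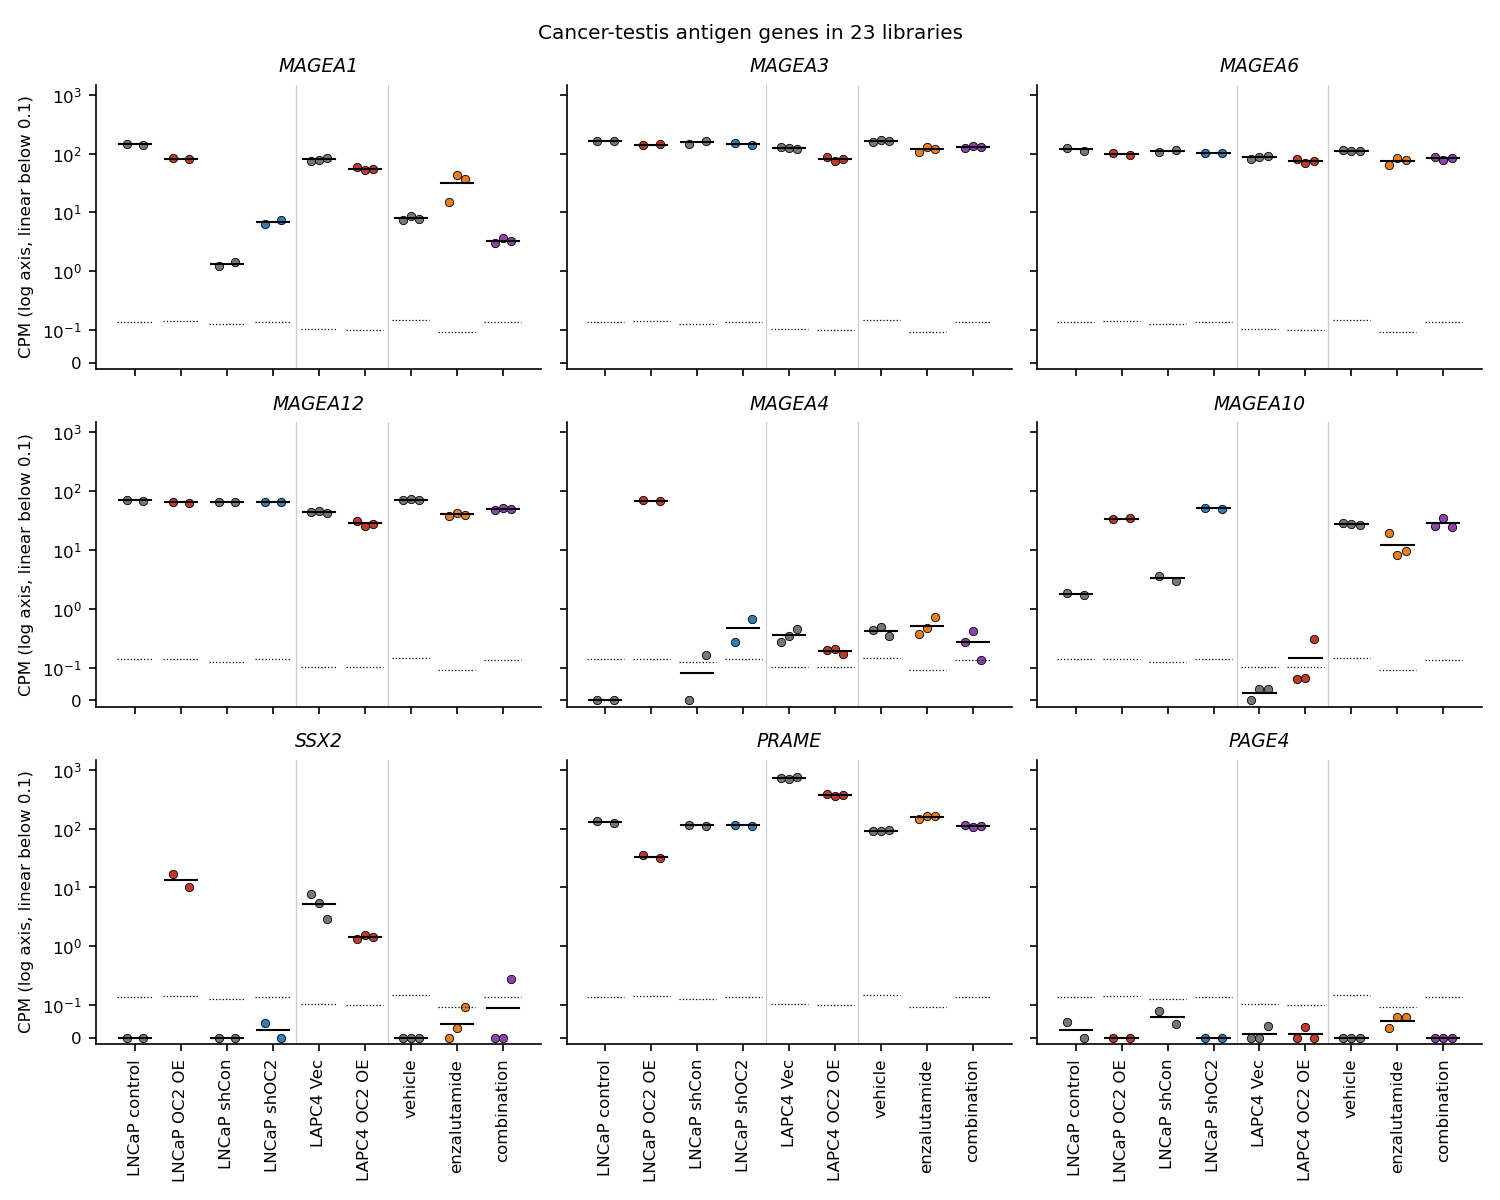
Levels of the 9 genes in 23 libraries, in CPM on a log axis that is linear below 0.1, by group. Points are libraries, bars are group means, dotted lines mark the floor of 3 counts, and grey lines separate the 3 tables; MAGEA4 exceeded 1 CPM in the LNCaP OC2 OE libraries alone.

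Per kilobase of exon, which allows genes to be compared, MAGEA3 led the LNCaP control at 92.0 CPM per kb, followed by MAGEA1 at 83.7, MAGEA6 at 63.8, MAGEA12 at 35.8 and PRAME at 34.5. The libraries of MAGEA12 and PRAME overlapped, and the other neighbours in that order did not. In LAPC4 Vec, PRAME came first at 194 CPM per kb, then MAGEA3 at 69.4, MAGEA6 at 47.1 and MAGEA1 at 46.9, with the last pair overlapping. After OC2 overexpression in LNCaP, MAGEA4 held 22.3 CPM per kb and stood between MAGEA12 at 33.1 and MAGEA10 at 11.6.

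MAGEA4 was the member with the sharpest change of state. It had 0 counts in both LNCaP control libraries and 1474 and 1418 counts in the OE libraries, or 68.6 ± 2.01 CPM (SD, n = 2). Against the floor of 3 counts per control library this was at least 492-fold higher. In shCon the counts were 0 and 4, in shOC2 6 and 15, and in the 9 drug libraries 3 to 23, so no other LNCaP group came near the OE level. LAPC4 did not show this: MAGEA4 had 8, 10 and 13 counts in Vec and 6, 6 and 5 in OE, 1.88-fold lower in CPM, with every OE library below every Vec library at levels of 0.189 ± 0.0197 against 0.357 ± 0.0901 CPM (n = 3 each). The gene did not pass the filter on low counts in LAPC4.

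SSX2, which encodes a nuclear repressor known from the SS18-SSX fusions of synovial sarcoma, also went from nothing to expressed in LNCaP. Both control libraries had 0 counts and the OE libraries had 359 and 213, or 13.6 ± 4.92 CPM, at least 97.4-fold higher. All 1532 windows of 50 bases in its transcripts recur in the neighbouring copy SSX2B (100%), and the RefSeq promoter windows of the copies matched at 300 of 300 positions, so the split between the rows is uncertain. SSX2B had 4 and 3 counts in control and 333 and 494 in OE. Summed over both copies, the OE libraries held 33.2 ± 0.438 CPM against 0.163 ± 0.0424 in control, a 203-fold difference. In LAPC4 the direction was the opposite. Vec held 223, 155 and 82 SSX2 counts and OE held 41, 46 and 43, 3.64-fold lower, and 3.50-fold lower with SSX2B added.

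MAGEA10 was low in LNCaP control (39 and 38 counts, 1.79 ± 0.139 CPM) and reached 694 and 724 counts in the OE libraries (33.6 ± 0.940 CPM), 18.8-fold higher. The vehicle-treated LNCaP libraries of the drug table, scaled separately, held 583, 567 and 547 counts (27.5 ± 1.01 CPM), so the control level was not shared by all LNCaP reference groups. It was all but absent from LAPC4, where Vec held 0, 1 and 1 counts. The LAPC4 OE libraries had 2, 2 and 9, a ratio of 6.27 with an exact 95% interval of 1.42 to 57.2 that covers counting error only. All 3 OE libraries were above the Vec libraries, but 9 of their 13 counts came from 1 library.

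PRAME was lower after overexpression in both lines. The LNCaP control held 130 ± 7.97 CPM and the OE libraries 33.4 ± 2.98, 3.90-fold lower, from 2811 and 2803 counts to 748 and 661. LAPC4 started higher, at 733 ± 23.4 CPM in Vec (21642, 20512 and 21591 counts), and stood 1.97-fold lower, at 372 ± 11.3, in OE (11630, 10648 and 11092). No OE library reached the level of a reference library in either line.

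MAGEA1 was 1.74-fold lower in LNCaP OE than in control, at 82.4 ± 1.64 against 143 ± 2.67 CPM, and 1.45-fold lower in LAPC4 OE than in Vec, at 55.2 ± 3.76 against 80.1 ± 5.31. The LNCaP direction depends on the reference: against the shCon libraries, at 1.33 ± 0.123 CPM, the same OE libraries were 62.1-fold higher. MAGEA3, MAGEA6 and MAGEA12 were lower in LNCaP OE by 1.15-, 1.19- and 1.08-fold. In LAPC4 they were lower by 1.53-, 1.18- and 1.58-fold. MAGEA3 shares 54.9% of its 50-base windows with MAGEA6, so part of their counts could be exchanged. Summed, the pair was 1.17-fold lower in LNCaP and 1.37-fold lower in LAPC4.

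Across the set, 3 of 9 members were higher in both LNCaP OE libraries than in both control libraries (MAGEA4, SSX2 and MAGEA10), where 42.2% of the genes tested were, and 5 were lower, where 38.2% were. With shCon as the reference, MAGEA4 (825-fold, against 4 counts), SSX2 (at least 109-fold), MAGEA10 (10.2-fold) and MAGEA1 were above it. PRAME was 3.44-fold, MAGEA6 1.11-fold, MAGEA3 1.09-fold and MAGEA12 1.02-fold below it. The shares of all genes against shCon are not given here. In LAPC4, 7 members were lower in every OE library (31.2% of the genes tested) and MAGEA10 was higher (35.3%). These contrasts chose the set, so the shares are printed for scale. MAGEA4 and SSX2 lay on opposite sides of their reference in the 2 lines.

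**Figure D2:**
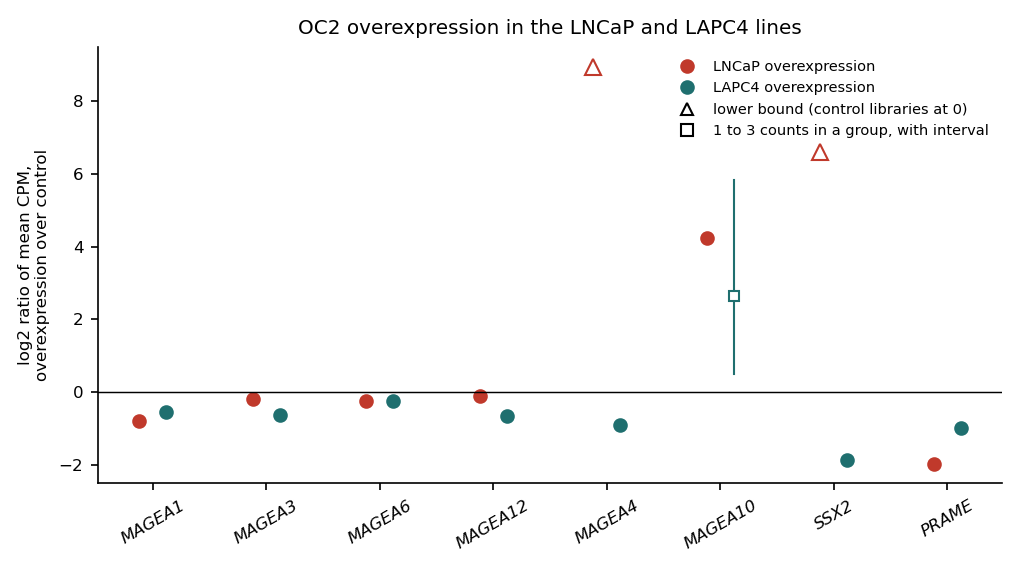
log2 ratio of mean CPM, OC2 overexpression over its reference, for the 8 members with counts, in LNCaP (2 against 2 libraries) and LAPC4 (3 against 3). Triangles are lower bounds against the floor of 3 counts and the line on MAGEA10 is its exact 95% counting interval; MAGEA4 and SSX2 sit at 492-fold and 97.4-fold bounds in LNCaP and below 0 in LAPC4.

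The knockdown set shOC2 against shCon, and members that passed the filter were tested. Levels of these groups were in view when the members were chosen. MAGEA10 rose 15.5-fold, from 88 and 71 counts in shCon to 1130 and 1112 in shOC2 (3.29 ± 0.484 to 51.2 ± 1.31 CPM; log2 fold change 3.96, SE 0.10, edgeR adjusted p = 4.23e-09). MAGEA1 rose 5.25-fold, from 30 and 34 counts to 138 and 167 (log2 2.39, SE 0.20, edgeR adjusted p = 8.30e-06). Both shOC2 libraries were above both shCon libraries for each gene. Of the 6 members that passed the filter, 2 were called higher (27.3% of all genes tested) and none lower (26.8%), where 54.1% of all genes were called. MAGEA10 was thus above its reference in LNCaP both with more OC2 (33.6 CPM) and with less (51.2 CPM), against 2 different reference groups, control and shCon. Reference groups of LNCaP also differed widely. MAGEA10 was at 1.79 CPM in control, 3.29 in shCon and 27.5 in vehicle, which was scaled separately. MAGEA1 was at 143, 1.33 and 7.95 CPM in that order. Whether less OC2 set the knockdown differences was not tested.

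The other 4 tested members were near their shCon levels. MAGEA3 was 145 ± 7.60 against 155 ± 9.33 CPM, MAGEA6 103 ± 1.48 against 111 ± 8.67, MAGEA12 65.2 ± 1.26 against 65.9 ± 0.131 and PRAME 114 ± 1.66 against 115 ± 3.53. None was called (edgeR adjusted p = 0.234, 0.236, 0.912 and 0.939), with log2 differences of -0.09, -0.09, -0.01 and -0.01 and SEs of 0.06, 0.06, 0.05 and 0.05. MAGEA4 had 21 counts in shOC2 against 4 in shCon, 5.74-fold in CPM, and did not pass the filter. SSX2 had 1 count in shOC2 and none in shCon.

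The reference groups of LNCaP differed in MAGEA1. It held 2998 and 3175 counts in control and 30 and 34 in shCon, 108-fold lower (log2 -6.75, SE 0.11, edgeR adjusted p = 2.16e-09). The vehicle libraries of the drug table, scaled separately, were at 7.95 ± 0.590 CPM. MAGEA10 was 1.84-fold higher in shCon than in control (edgeR adjusted p = 0.0112), but the call was lost with DESeq2 (adjusted p = 0.0670) and in 3 of the 4 leave-one-out fits. MAGEA3, MAGEA6, MAGEA12 and PRAME were not called (edgeR adjusted p = 0.324, 0.312, 0.356 and 0.0580). So 1 of 6 tested members was higher and 1 lower, against 28.3% and 28.1% of all genes (56.4% called in all). By order of the libraries alone, 39.8% of genes were higher in both shCon libraries. This comparison shares its control libraries with the overexpression comparison. Whether the hairpin vector, the stock of cells or the time of preparation set these levels was not tested.

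In the drug experiment, enzalutamide alone was set against vehicle first. MAGEA1 was 4.02-fold higher, with 502, 1402 and 1183 counts against 154, 177 and 160 (31.9 ± 14.8 against 7.95 ± 0.590 CPM; log2 2.01, SE 0.31, edgeR adjusted p = 0.000233). The lowest enzalutamide library, at 15.3 CPM, was still above the highest vehicle library, at 8.62. PRAME was 1.72-fold higher (159 ± 10.3 against 92.2 ± 2.07 CPM, edgeR adjusted p = 3.72e-06). MAGEA12 was 1.76-fold, MAGEA6 1.49-fold and MAGEA3 1.37-fold lower (edgeR adjusted p = 3.89e-06, 0.000259 and 0.000606).

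MAGEA10 was 2.23-fold lower after enzalutamide (12.3 ± 6.07 against 27.5 ± 1.01 CPM, edgeR adjusted p = 0.00392). The same library that was lowest for MAGEA1 was highest for MAGEA10, at 19.3 CPM against 8.12 and 9.50 in the others. MAGEA4 had 12, 15 and 23 counts against 9, 10 and 7 and was not called (edgeR adjusted p = 0.548). In all, 2 of 7 tested members were higher and 4 lower, against 34.7% and 35.6% of all genes (70.3% called, and 36.6% higher in every library). The enzalutamide columns hold whole counts and the vehicle and combination columns estimated counts, and this difference in the deposited values and the drug cannot be told apart. MAGEA2, which shares 96.4% of its 50-base windows with other genes, was at 0.918 CPM in enzalutamide and 94.7 in vehicle. MAGEA12 shares 13.8% of its windows, MAGEA3 56.5% and MAGEA6 53.9%, whereas MAGEA1 shares 0.662% and PRAME 0.

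The combination and vehicle columns both hold estimated counts. MAGEA1 was 2.41-fold lower after the combination, with 67, 79 and 71 counts (3.29 ± 0.302 CPM; log2 -1.27, SE 0.34, edgeR adjusted p = 0.0120), and every combination library was below every vehicle library. MAGEA12 was 1.43-fold, MAGEA6 1.36-fold and MAGEA3 1.26-fold lower (edgeR adjusted p = 0.000330, 0.00296 and 0.00807), and PRAME was 1.22-fold higher (edgeR adjusted p = 0.00703), each without overlap between the groups. MAGEA10 was not called (28.4 ± 6.12 against 27.5 ± 1.01 CPM; edgeR adjusted p = 0.902), nor was MAGEA4 (edgeR adjusted p = 0.318). Of 7 tested members, 1 was higher and 4 lower, against 23.2% and 23.6% of all genes (46.8% called, and 31.3% higher in every library). Since no arm had the inhibitor alone, its own part in these differences cannot be told apart from that of enzalutamide.

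Against enzalutamide, the combination was 9.70-fold lower in MAGEA1 (log2 -3.28, SE 0.34, edgeR adjusted p = 1.77e-05) and 1.41-fold lower in PRAME (edgeR adjusted p = 0.000127). It was 2.31-fold higher in MAGEA10 (edgeR adjusted p = 0.00368) and 1.23-fold higher in MAGEA12 (edgeR adjusted p = 0.00433). MAGEA3, MAGEA6 and MAGEA4 were not called (edgeR adjusted p = 0.206, 0.233 and 0.0982). These 2 higher and 2 lower calls of 7 stand against 31.4% and 30.4% of all genes (61.9% called, and 31.8% lower in every library). The 3 drug comparisons share arms, and this one also sets estimated against whole counts. ONECUT2 was 1.64-fold higher in enzalutamide than in vehicle (edgeR adjusted p = 0.00139), 1.82-fold lower in the combination than in enzalutamide (edgeR adjusted p = 0.000528), and not called between combination and vehicle (edgeR adjusted p = 0.440).

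**Figure D3:**
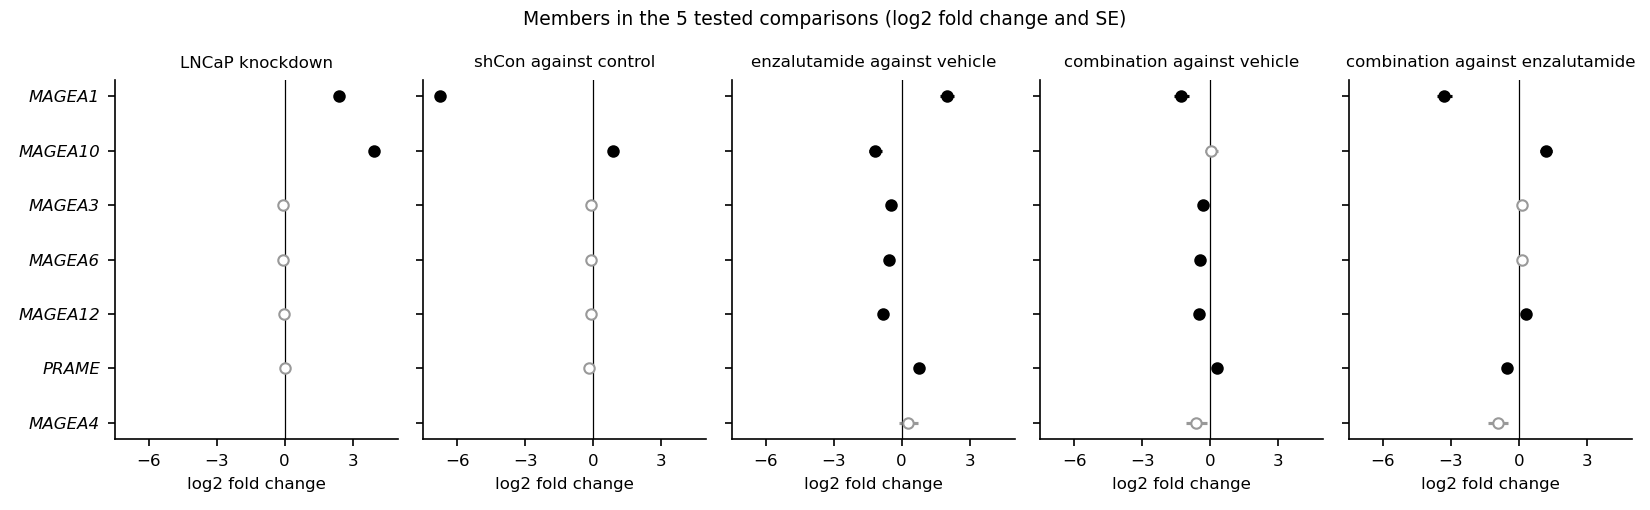
log2 fold change with SE (edgeR) of the tested members in the knockdown, the comparison of LNCaP reference groups and the 3 drug comparisons. Filled points passed an adjusted p of 0.05; MAGEA1 ran from -6.75 in shCon against control to 2.39 in the knockdown, while MAGEA3, MAGEA6, MAGEA12 and PRAME stayed within 1 log2 unit of 0.

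The wider class was read from 175 other cancer-testis genes, 104 X-linked and 71 autosomal, of which 170 were in the LNCaP and LAPC4 tables. Like PAGE4, 94 of the 170 did not exceed 3 counts in any library of the LNCaP table and 93 in any of the LAPC4 table. By group, 26.3% to 29.2% of protein-coding genes were silent in the LNCaP table and 25.5% and 28.3% in LAPC4. Their share over all libraries of a table is not given here. In LNCaP overexpression 45 were tested and 17 were higher and 15 lower, or 71.1% called against 60.8% of all genes (31.6% higher and 29.3% lower). In LAPC4, 6 of 45 were higher and 21 lower, where 32.1% and 29.0% of all genes were, 61.1% in all. X-linked genes had a median log2 change of -0.60 in LNCaP and -0.70 in LAPC4, and autosomal genes of 0.59 and -0.24, where all genes tested stood at 0.02 and 0.00310. The X-linked calls were 7 higher and 13 lower in LNCaP, and 2 higher and 11 lower in LAPC4. Of these, 13 and 6 were for genes whose windows are largely shared with other genes. The LNCaP median is given against control only. X-linked genes were themselves lower in shCon than in control, by a median log2 difference of -3.75, and their median against shCon is not given here.

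Among the X-linked genes called higher in LNCaP overexpression were the NY-ESO-1 genes CTAG1A and CTAG1B, targets of T-cell therapies. CTAG1A went from 0 to 3 counts per control library to between 763 and 1080, a ratio of 602 with an exact interval of 206 to 2923, and CTAG1B from 0.156 to 34.6 CPM. These copies share 90.3% of their windows and their split is uncertain. MAGEC2, of a related MAGE subfamily, rose 26.9-fold (edgeR adjusted p = 1.30e-06). CTAG2, a close relative of NY-ESO-1 named after its values were seen, rose 15.2-fold, from 4.69 ± 0.966 to 71.3 ± 4.26 CPM (edgeR adjusted p = 1.20e-08). NXF2, NXF2B, XAGE1B and SSX4, all with near-identical copies, were lower.

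Autosomal genes called higher in LNCaP overexpression included germline genes outside the antigen families. GPAT2, a mitochondrial acyltransferase tied to the piRNA pathway, went from 1 and 2 counts to 553 and 576, a ratio of 390 (exact interval 133 to 1893). TDRD6, a tudor protein of the germ cell chromatoid body, rose 64.2-fold to 11.8 ± 0.849 CPM (edgeR adjusted p = 9.33e-08). TEX15, which acts in germline transposon silencing, reached 9.55 CPM from 3 counts in all (ratio 139, exact interval 47.3 to 677), and TPTE, a testis phosphatase homologue with a copy, reached 15.6 CPM from 1 count. CCDC83 and ACTL8 were lower, and TSGA10 and DDX43 were not called.

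In LAPC4, LY6K, a GPI-anchored surface protein of testis and tumours that overlaps the long noncoding gene LNCOC1 in 67.4% of its windows, rose 559-fold, from 2 to 3 counts per Vec library to between 1525 and 1545 (edgeR adjusted p = 9.42e-11). It stayed at 0 to 7 counts in LNCaP OE. TEX14 was 1.69-fold higher (edgeR adjusted p = 0.0116). CRISP2, TDRD1, STK31 and CCDC110 were lower, by 7.38-, 4.31-, 2.78- and 2.52-fold, as were SSX3, MAGEA8, VCX3A and CSAG3. SPA17 and CABYR were not called.

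The difference between the lines was tested on 66 of these genes as an interaction. In 22 the LAPC4 change lay below that of LNCaP and in 9 above it, or 47.0% called against 49.5% of all genes (25.4% above and 24.1% below). GPAT2 fell 1.91-fold in LAPC4 overexpression, from 37.3 ± 4.14 to 19.5 ± 2.42 CPM, and the lines differed by -9.41 log2 units (SE 0.32, edgeR adjusted p = 5.72e-11). CTAG2 fell 1.48-fold there and differed by -4.48 (SE 0.17, edgeR adjusted p = 1.39e-10). Both LAPC4 reference levels, 37.3 CPM for GPAT2 and 61.0 for CTAG2, were above the LNCaP control levels of 0.0687 and 4.69. GPAT2 shares 37.1% of its windows with other genes and CTAG2 43.1% with CTAG1B. Estimated counts in LNCaP were set against whole counts in LAPC4.

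**Figure D4:**
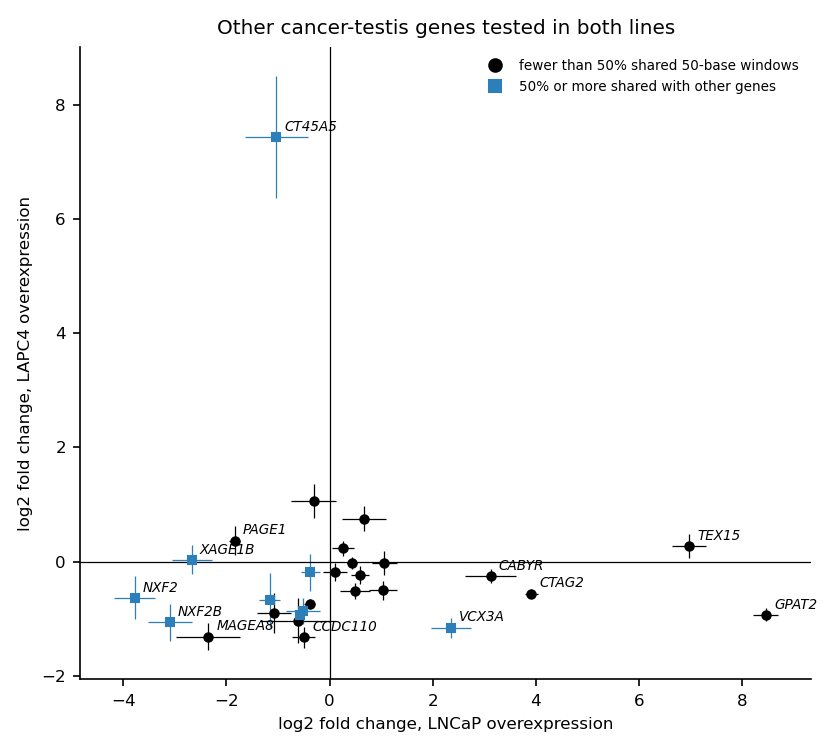
log2 fold change (with SE) after OC2 overexpression in LNCaP (x axis) and LAPC4 (y axis) for the 28 other cancer-testis genes tested in both lines. Squares are genes that share 50% or more of their 50-base windows with other genes; GPAT2, CTAG2 and VCX3A lie right of 0 and below 0.

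In the knockdown, 8 of 28 tested genes of the wider class were higher and 6 lower, near the 27.3% and 26.8% of all genes. XAGE1A (3.66-fold), GAGE2E (3.16-fold) and CSAG1 (1.28-fold) were called higher among the X-linked genes, the first pair with copies, and TDRD1 (3.44-fold) and the nuclear receptor NR6A1 (2.83-fold) among the autosomal ones. ACTL8 (3.45-fold) and the helicase gene DDX43 (2.06-fold) were called lower. SSX2B, CTAG1A, CTAG1B, CTAG2, MAGEC2, GPAT2, TDRD6 and TPTE had means of 0 to 0.387 CPM in shOC2, and TEX15 of 1.19.

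Between the LNCaP reference groups, 18 of 38 tested genes were lower in shCon than in control and 7 higher (28.1% and 28.3% of all genes), and among X-linked genes it was 17 lower and 1 higher of 21. Their median log2 difference was -3.75, or -3.53 with genes at 0 counts in a group set to their bound, where all genes stood at -0.0008. PAGE1, a relative of PAGE4, fell 280-fold, from 122 ± 18.2 to 0.435 ± 0.203 CPM (edgeR adjusted p = 1.61e-08). CTAG2 fell 75.5-fold, from 201 counts to 3 (exact interval of the ratio 0.00271 to 0.0393). MAGEA1 was also lower in shCon, and its cluster neighbours MAGEA3, MAGEA6 and MAGEA12 were not called.

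In the drug comparisons the calls among 46 tested genes were 21 higher and 15 lower for enzalutamide against vehicle (34.7% and 35.6% of all genes), 5 and 8 for the combination against vehicle (23.2% and 23.6%), and 13 and 22 for the combination against enzalutamide (31.4% and 30.4%). Of these calls, 14, 3 and 14 in that order were for genes whose windows are largely shared with other genes. The 2 comparisons with enzalutamide also set whole against estimated counts, which cannot be told apart from the drug. PAGE1 (59.4 ± 28.8 against 0.566 ± 0.0721 CPM, edgeR adjusted p = 1.16e-06) and SAGE1 were higher in enzalutamide. CTAG2 had 158 to 308 counts per enzalutamide library, 3 to 6 in vehicle and 2 to 12 in combination. In the combination, BRDT, a testis bromodomain protein, was 4.79-fold higher than in vehicle (edgeR adjusted p = 0.000878) and CT62 11.2-fold lower (edgeR adjusted p = 5.11e-05).

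**Figure D5:**
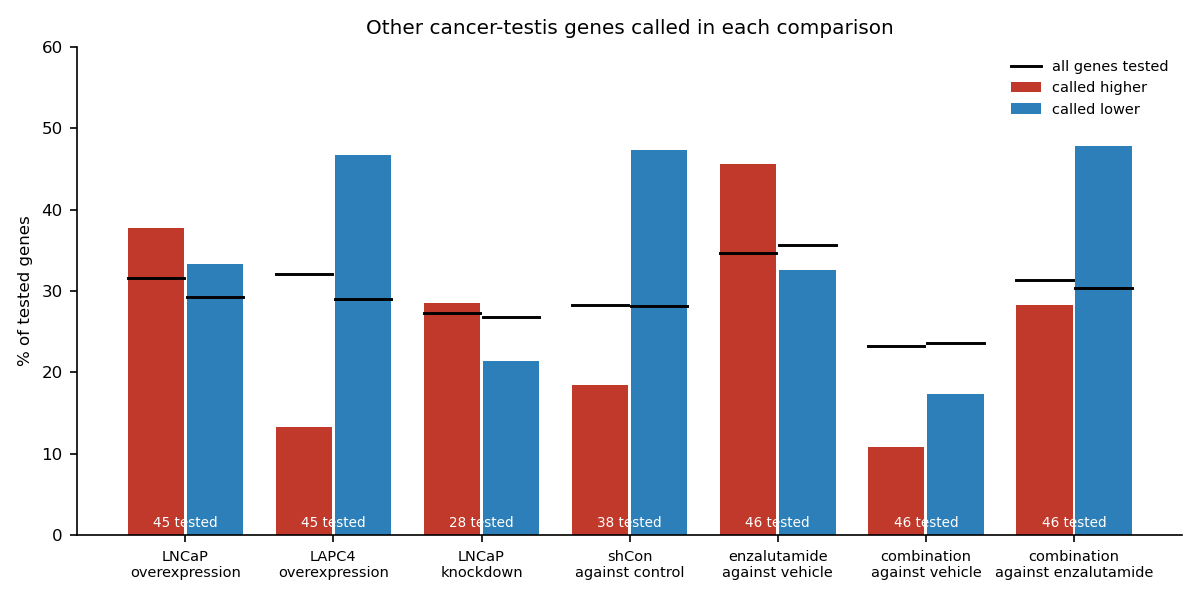
Share of tested cancer-testis genes outside the 9 members called higher or lower in each comparison, in percent, with the number tested. Comparisons with the enzalutamide group set whole against estimated counts. Black lines give the share of all genes tested that was called in the same direction. The bars for higher calls stand above them in LNCaP overexpression, in enzalutamide against vehicle and, slightly, in the knockdown. Those for lower calls stand above them in both overexpression comparisons, in shCon against control and in combination against enzalutamide.

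MAGE genes that are expressed in many tissues were counted as a separate list. In LNCaP overexpression 5 of 9 tested were lower and none higher, where 29.3% and 31.6% of all genes were, led by NDN (3.34-fold, 50.1 ± 2.50 to 15.0 ± 0.239 CPM) and MAGEF1 (2.38-fold). In LAPC4 overexpression 5 of 7 were higher and none lower (32.1% and 29.0% of all genes), led by MAGEH1 (2.73-fold) and MAGEE1 (2.45-fold). MAGED2, the most abundant uncalled one, differed by -0.04 log2 units in each line.

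Chromatin and DNA methylation regulators of germline genes were counted next, 22 of 22 tested in every comparison. In LNCaP overexpression 13 were higher and 3 lower (31.6% and 29.3% of all genes), and among them the de novo DNA methyltransferase DNMT3B was 2.16-fold and the histone methyltransferase SETDB1 1.78-fold higher. In LAPC4 overexpression 6 were higher and 9 lower (32.1% and 29.0% of all genes), and DNMT3B was 1.52-fold lower. In the knockdown 4 were higher and 13 lower (27.3% and 26.8% of all genes). UHRF1, which brings DNMT1 to replicated DNA, was 1.87-fold lower (edgeR adjusted p = 4.76e-06) and MGA, a subunit of the PRC1.6 complex that represses germline genes, 2.35-fold higher (edgeR adjusted p = 1.37e-06). Between combination and vehicle 4 were higher and 10 lower (23.2% and 23.6% of all genes), with UHRF1 3.17-fold, EZH2 2.23-fold and DNMT1 1.73-fold lower.

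Retinoic acid genes were read beside PRAME. In LNCaP overexpression, where PRAME was 3.90-fold lower, 5 of 9 tested were higher and 3 lower (31.6% and 29.3% of all genes). The retinoic acid binding protein CRABP2 rose 35.6-fold to 10.5 ± 0.188 CPM and DHRS3, a retinal reductase, 6.04-fold, while TGM2 was 23.8-fold lower and the receptor RXRA 1.94-fold lower. In LAPC4, 4 of 10 were higher and 2 lower (32.1% and 29.0% of all genes). TGM2 rose from 0.322 to 652 ± 34.7 CPM, CYP26B1, which degrades retinoic acid, 8.20-fold and the receptor RARG 4.08-fold. In the knockdown, where PRAME was not called, 5 of 10 were higher, DHRS3 by 4.78-fold among them, and 2 lower (27.3% and 26.8% of all genes).

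Genes next to the members on the chromosome were compared in the same libraries. GABRE, 27954 bp beyond MAGEA4, was 3.00-fold lower in LNCaP overexpression (edgeR adjusted p = 5.34e-05) and 3.51-fold lower in LAPC4 (edgeR adjusted p = 3.20e-05). The LNCaP direction depends on the reference: GABRE was at 6.83 CPM in control, 2.28 in OE and 0.290 in shCon. It was 23.5-fold lower in shCon than in control (edgeR adjusted p = 1.64e-06). GABRA3, 27656 bp beyond MAGEA10, was not called in LNCaP overexpression or knockdown (edgeR adjusted p = 0.327 and 0.593). PNMA6A and PNMA3, 104267 and 118818 bp from MAGEA1, were 2.01-fold and 5.14-fold lower in the knockdown, where MAGEA1 was higher (edgeR adjusted p = 2.76e-05 and 2.03e-05). In LNCaP overexpression, where MAGEA1 was 1.74-fold lower, they were 2.47-fold and 4.61-fold lower (edgeR adjusted p = 8.44e-05 and 7.57e-06). ZNF280A and ZNF280B, 27431 and 38547 bp from PRAME, were 1.88-fold and 1.89-fold lower in LAPC4 overexpression (edgeR adjusted p = 0.000350 and 0.000112), where PRAME was 1.97-fold lower. ZNF280B was not called in LNCaP overexpression (edgeR adjusted p = 0.916). In the knockdown, where PRAME was not called, ZNF280B was 1.44-fold higher (edgeR adjusted p = 0.0105). ZNF280A stayed at or under the floor in LNCaP overexpression and knockdown. ZNF275, 150267 bp from MAGEA1, was 1.36-fold lower in LAPC4 overexpression (edgeR adjusted p = 0.000821). It was not called in LNCaP overexpression or knockdown (edgeR adjusted p = 0.105 and 0.367). SSX7, 41996 bp from SSX2, stayed at or under the floor in both LNCaP and LAPC4 overexpression. XAGE1B, 176093 bp from SSX2, was 6.46-fold lower in LNCaP overexpression (edgeR adjusted p = 0.000239) and not called in LAPC4 (edgeR adjusted p = 0.924). It held 66 counts in control, 10 in OE and 2 in shCon.

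Likeness of pattern over the 8 LNCaP libraries, by Pearson r of log2(CPM + 1) among 12566 genes, was a description over 4 groups of 2 libraries. MAGEA4 was most like HES7 (r = 0.999; 0.0948 CPM in control, 28.7 in OE, 0.186 in shCon and 0.501 in shOC2), and NELL2 was also among its nearest 3 (r = 0.999). MAGEA10 was most like SHC1 (r = 0.998; 160, 324, 177 and 367 CPM in that order). PRAME was nearest to PARP10 and HSD3B7, and MAGEA1 to TUFM and TUSC1. The SSX2 row alone was nearest to PCDHAC2 and PCDHA13, and its split from SSX2B is uncertain. That row held 17.0 and 10.1 CPM in the OE libraries, where the summed copies held 32.9 and 33.5.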

How the data were processed

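RNA levels per gene were read from 3 tables that cover 23 libraries. The authors deposited whole read counts per gene for LAPC4 and for the enzalutamide columns, and estimated counts, which need not be whole, for the LNCaP table and the vehicle and combination columns. These were rounded to whole numbers here. The submitters' processing notes list FastQC 0.9.0, Bowtie2 and the hg38 build. Which counter and annotation made the tables is not given in the sources used here. Columns of enzalutamide libraries name the group but not the sample.

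Genes were filtered with filterByExpr and tested with the quasi-likelihood test of edgeR 4.0.16 (R 4.3.3, TMM scaling, limma 3.58.1) within each table, with Benjamini-Hochberg adjustment over all genes tested and a threshold of 0.05. Levels across tables were scaled separately. Fold changes in the text are ratios of mean CPM, and log2 fold changes with SEs come from edgeR. A group at 0 was set to the floor of 3 counts per library, and ratios over 1 to 3 counts have exact 95% (Clopper-Pearson) intervals. Reads carry no molecular identifiers, so these cover counting error only. DESeq2 1.42.0, RLE size factors, no filter, shCon as the reference, a replicate block and leaving out each library were the alternatives. The scripts were tested on simulated data.

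The members and lists were chosen with earlier results of these data known. All 9 members are named. From each list and comparison, up to 4 genes called in each direction with the largest change and at least 1 CPM, and up to 2 uncalled genes with the highest level, could be named. CTAG2, and GPAT2, UHRF1 and PAGE1 where they fall outside that rule, were chosen after their values were seen. Gene positions, exon lengths and shared 50-base windows come from GENCODE 29. A gene of the retinoic acid list is not reported here.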

Additional observations from a re-analysis of the deposited data

Results flagged for a closer look

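MAGEA4 and SSX2 lay on opposite sides of their reference in the 2 lines, in every library. MAGEA4 was at least 492-fold higher in the LNCaP overexpression libraries, and its ratio in LAPC4 was 0.531. That LAPC4 ratio rests on 17 counts in OE and 31 in Vec, where the gene did not pass the filter on low counts. SSX2 was at least 97.4-fold higher in LNCaP, and its ratio in LAPC4 was 0.275. These differences between the lines were not tested, because the members were chosen on the same contrasts.

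The 4 other cancer-testis genes listed here were called in opposite directions in the 2 lines and also passed the edgeR interaction test. Passing that test was part of how they were picked, so its adjusted p-values below are no further support. The log2 change in LAPC4 minus that in LNCaP was -9.41 for GPAT2 (adjusted p = 5.72e-11), -4.48 for CTAG2 (adjusted p = 1.39e-10), -3.52 for VCX3A (adjusted p = 1.17e-05) and -1.54 for SPEF2 (adjusted p = 0.00135). VCX3A shares most of its windows with related copies, CTAG2 shares 43.1% with CTAG1B, and GPAT2 shares 37.1% with other genes. The LNCaP values are estimated counts and the LAPC4 values whole counts. Medium, androgen supplement and table differ between the lines as well, and their part in the differences was not tested.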

How the results depend on the processing

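Under the alternatives, 474 values of members stayed the same, 4 moved, 4 lost their call (MAGEA10 in shCon against control) and 6 changed sign. In the tested comparisons, the same means the same direction and side of the threshold. For overexpression, where members carry no test, it means the same direction and a log2 change that shifted by less than the SD of the log2 ratio. With shCon as the reference MAGEA1 in LNCaP overexpression turned to a log2 change of 5.95. Uncalled members changed sign on leaving out 1 library. MAGEA12 in the knockdown ran from -0.019 to 0.015, and was 0.015 without shOC2 replicate 1. PRAME in the knockdown ran from -0.042 to 0.024, and was 0.024 without shCon replicate 1 and 0.018 without shOC2 replicate 2. MAGEA4 in enzalutamide against vehicle ran from -0.019 to 0.48, with -0.019 without the third enzalutamide column. MAGEA10 in combination against vehicle ran from -0.14 to 0.14, with -0.14 without combination replicate 2. The cause was not tested. ONECUT2 in shCon against control lost its call with no filter (edgeR adjusted p = 0.0711) and without control replicate 2 (0.0773).

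The knockdown called 8969 genes, and 5076 to 7863 on leaving out 1 library (5076 without shOC2 replicate 1 and 5524 without shOC2 replicate 2). Other cancer-testis genes called there numbered 14, 9 with DESeq2, and 7 to 17 on leaving out 1 library. In shCon against control it was 25, and 15 to 26 (16 and 15 without control replicates 1 and 2).

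The replicate numbers did not pair the samples: correlations of same-numbered deviations ran from -0.104 to 0.115. With the number as a replicate block, 11256 genes were called in LNCaP overexpression, 9808 in LAPC4, 8521 in the knockdown, 9172 in shCon against control, 9428 between the lines and 9375 in combination against vehicle. No paired analysis was possible for enzalutamide because its column names do not match single sample titles. The block on the 2 groups alone and the sums of MAGEA3 with MAGEA6 and of SSX2 with SSX2B were added after the data were seen. Summing moved the log2 ratio of MAGEA3 and MAGEA6 in LAPC4 to -0.45.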
